A study of Mus musculus with 12 samples.

Results

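Solute carriers are membrane proteins, named Slc with a family number, a letter and a member number, that move ions, amino acids, metabolites, vitamins and nucleotides across cell and organelle membranes. The carriers described here are all those on the array except the glucose transporters (Slc2a) and the fatty acid transport proteins (Slc27a). They were chosen by name, from probe sets with a single gene symbol, and not by any measured difference. Earlier results of these data were known when the choice was made. The array held 140 such genes on 171 probe sets. A gene was represented by its brightest probe set over the 12 arrays, and the 39 genes whose brightest probe set lay in the lowest 40% of all probe sets were not tested. The remaining 101 genes, among 5707 genes tested in all, comprised 17 amino acid carriers, 27 inorganic ion carriers, 18 mitochondrial carriers (Slc25a) and 39 others. Before the brightness limit these classes held 23, 39, 20 and 58 genes. The limit lay at a mean intensity of 156.7: the dimmest carriers kept were Slc1a4 (163.3) and Slc10a6 (165.8), and the brightest left out were Slc46a1 (149.9) and Slc1a6 (136.5). The name rule also took in Slc9a3r1 and Slc9a3r2, which are scaffold proteins and not carriers, and the adaptor protein Slc4a1ap. All are counted with the ion class here, and Slc4a1ap was among the genes too dim to test.

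RNA was measured in perigonadal fat of ad libitum fed female mice, 6 months of age, with 1 Affymetrix array per mouse and 3 mice per group (12 arrays). Glut4, encoded by Slc2a4, is the insulin-responsive glucose transporter of fat and muscle. The overexpressors carried a Glut4 transgene driven by the aP2 (Fabp4) promoter on the FVB strain, and their controls were FVB littermates. The knockouts lacked Glut4 in adipose tissue on a mixed C57B6/FVB/SV129 background, and their controls were mice carrying aP2-Cre. The aP2 promoter is most active in fat cells and is known to be active in some other cells, macrophages among them. Each mutant was compared only with its own control, and levels were not compared between the 2 lines, whose lowest deposited intensities differed (21.9 and 22.27).

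Carriers of the Slc25a family sit mainly in the inner mitochondrial membrane and exchange metabolites between the matrix and the cytosol. In fat cells, the citrate carrier and the dicarboxylate carrier belong to the route by which carbon from glucose reaches cytosolic fatty acid synthesis, and the ADP/ATP carriers and the phosphate carrier serve oxidative phosphorylation. Amino acid carriers of the cell membrane include exchangers, some of which work as a light chain bound to the heavy chain encoded by Slc3a2, and sodium-coupled importers. Several of them are known targets of the amino acid stress response. Ion carriers set cell volume, pH and the supply of phosphate, magnesium, zinc, iron and copper.

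The promoters of 4 carriers are shown because the differences described below turn on them: Slc25a10 with the largest difference in the knockout, Slc25a1 as its partner in citrate export, and Slc31a1 and Slc1a4 because their groups separated in opposite directions in the 2 lines. Each is the RefSeq sequence on GRCm38.p6 from 250 bases before to 50 bases after the annotated start, 5′ to 3′ on the gene's strand. Capitals mark a match to one of the motifs searched, on either strand. They were CACGTG (an E-box, bound by several transcription factors), TCACNCCAC (a sterol element) and TGATGNAA (the core of the amino acid response element).
Slc25a10, chr11:120491587-120491886, plus strand: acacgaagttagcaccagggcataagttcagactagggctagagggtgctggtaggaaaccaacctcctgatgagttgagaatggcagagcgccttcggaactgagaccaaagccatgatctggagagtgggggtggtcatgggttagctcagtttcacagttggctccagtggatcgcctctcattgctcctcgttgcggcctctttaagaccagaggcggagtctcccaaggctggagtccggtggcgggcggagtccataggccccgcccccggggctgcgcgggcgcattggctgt
Slc25a1, chr16:17928170-17928469, minus strand: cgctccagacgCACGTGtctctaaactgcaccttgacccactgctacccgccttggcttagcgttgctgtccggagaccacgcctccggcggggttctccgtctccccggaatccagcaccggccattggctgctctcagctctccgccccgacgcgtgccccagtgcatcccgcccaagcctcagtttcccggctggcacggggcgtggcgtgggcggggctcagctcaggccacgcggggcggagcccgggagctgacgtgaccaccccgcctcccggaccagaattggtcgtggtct
Slc31a1, chr4:62360451-62360750, plus strand: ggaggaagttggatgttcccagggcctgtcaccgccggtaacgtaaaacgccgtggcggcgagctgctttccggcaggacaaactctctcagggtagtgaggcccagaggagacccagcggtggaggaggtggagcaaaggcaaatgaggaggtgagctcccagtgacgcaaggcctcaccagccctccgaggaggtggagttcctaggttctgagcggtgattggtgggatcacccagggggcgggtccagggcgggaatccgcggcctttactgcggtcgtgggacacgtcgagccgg
Slc1a4, chr11:20332664-20332963, minus strand: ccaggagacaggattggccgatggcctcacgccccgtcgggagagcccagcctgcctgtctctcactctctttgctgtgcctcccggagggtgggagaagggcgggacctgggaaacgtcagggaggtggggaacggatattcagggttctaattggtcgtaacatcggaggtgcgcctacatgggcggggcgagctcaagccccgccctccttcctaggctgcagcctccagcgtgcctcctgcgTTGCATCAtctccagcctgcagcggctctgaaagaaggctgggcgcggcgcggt
The Slc25a1 window held CACGTG close to its 5′ end, and the Slc1a4 window held the reverse complement of TGATGNAA across the start itself. The Slc25a10 and Slc31a1 windows held none of the 3 motifs. Windows of Slc3a2 and Slc38a2, amino acid carriers described below, were also searched, held none of the motifs either and are not shown. Promoter windows were found for 82 of the 101 carriers, with 126 windows in all. CACGTG stood in 15 of these 126 windows (11.9%) and in 7.15% of all 32851 windows of that length. TCACNCCAC stood in 3 of the 126 and in 1.24% of all, and TGATGNAA in 5 of the 126 (3.97%) and in 3.97% of all. These are matches of letters in a window and not measured binding sites.

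The tissue labels were checked first. Adiponectin (Adipoq) read 5196 to 6986 and Fabp4 read 3488 to 5152 on all 12 arrays. Slc2a4 read 625, 1110 and 1042 in the overexpressors and 639, 583 and 1212 in their controls, which overlapped (log2 fold change 0.22, adjusted p = 0.93). In the knockouts it read 378, 365 and 363, each below the control values of 416, 514 and 614 (-0.43, adjusted p = 1). Whether this probe set reads the transgene or the deleted part of the gene was not tested. Array medians ran from 185.8 to 219.4, with knockout control 3 and overexpressor 1 lowest. Overexpressor control 3, knockout 1 and knockout controls 1 and 2 correlated better with the opposite group of their line than with their own. In bulk tissue, fewer cells of a type and less RNA per cell cannot be told apart, and with 3 mice a group the p-values measure the spread between these mice.

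No carrier passed the test in either line. In the overexpressor, 0 of the 101 carriers had a limma p-value under 0.05 after Benjamini-Hochberg adjustment over all 7454 probe sets tested, against 0.0805% of all probe sets (6). In the knockout 0 of 101 passed, against 0.121% (9). For the difference between the 2 effects (knockout effect minus overexpressor effect) 0 of 101 passed, against 0.161% (12). The smallest adjusted p among the carriers was 0.456 in the overexpressor (Slc11a2), 1 in the knockout and 0.361 for the difference (Slc31a1). At an unadjusted limma p under 0.05 there were 6 carriers in the overexpressor (3 higher and 3 lower), 4 in the knockout (3 higher and 1 lower) and 5 in the difference (4 higher and 1 lower), against 4.76%, 3.98% and 4.95% of all probe sets. Groups of 3 that did not overlap were found for 13 carriers in the overexpressor line (4 higher and 9 lower) and for 4 in the knockout line (3 higher and 1 lower), against 8.77% and 7.51% of all probe sets. With so few carriers in each count, and shares of the same order as those of all probe sets, nothing about the carriers as a group is read from them. The median standard error of a carrier's log2 fold change was 0.131, and the median 95% interval reached 0.285 to either side. That interval is not adjusted for the number of probe sets, and it is not a limit of detection for the adjusted test. Larger differences also failed that test with 3 mice a group, Slc25a10 in the knockout (0.95) among them. All log2 fold changes are on the scale log2(intensity + 36.92) and understate those of dim probe sets.

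**Figure D1:**
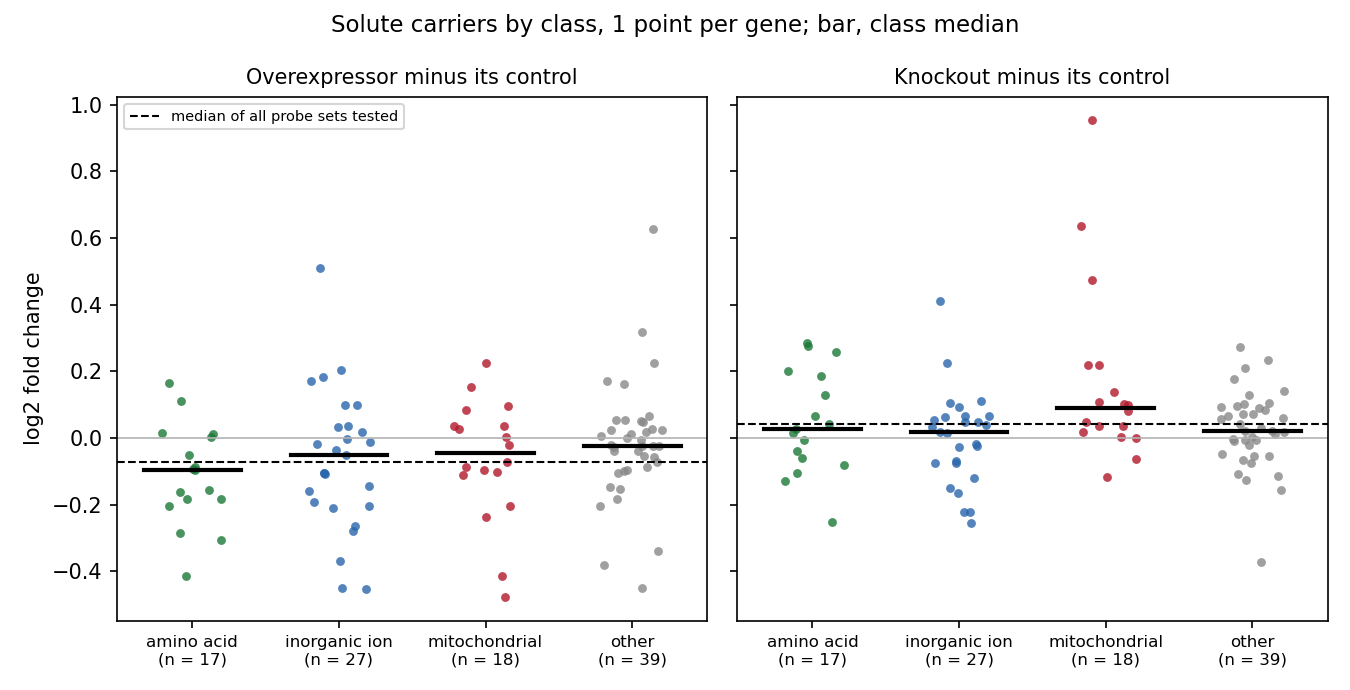
Log2 fold change of each of the 101 carriers (y axis) by class (x axis), for the overexpressor (left) and the knockout (right), each against its own control. Bars are class medians and the dashed line is the median of all 7454 probe sets. The mitochondrial median in the knockout, 0.09, lies highest above the dashed line, at 0.04. Slc25a10, Slc25a17 and Slc25a1 are the 3 highest points of that class in the knockout.

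At the deposited scaling the overexpressor median of every class was below 0 and the knockout median of every class above 0, as were those of all probe sets, and several turned with another scaling, as given by class below. In the overexpressor 38 carriers were higher and 63 lower (median -0.04), beside 29.6% higher and a median of -0.07 over all probe sets. In the knockout 65 were higher and 36 lower (median 0.04), beside 62.9% higher and a median of 0.04 over all. These splits depended on the scaling. With quantile normalization within each line they turned to 58 higher and 43 lower in the overexpressor and to 43 higher and 58 lower in the knockout, and with array medians subtracted to 56 against 45 and 49 against 52. Without overexpressor 1 the first split was 53 higher and 48 lower, and without knockout control 3 the second was 45 against 56. In all, 40 of the 101 carriers (39.6%) were lower in the overexpressor and higher in the knockout, and 44.6% of all probe sets were. The same was true of 9 of 18 mitochondrial, 6 of 17 amino acid, 12 of 27 ion and 13 of 39 other carriers.

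The mitochondrial carriers held the largest knockout difference. In the knockout 16 of the 18 were higher than in the controls and 2 lower, with a median of 0.09, beside 62.9% of all probe sets higher. In the overexpressor 8 were higher and 10 lower, with a median of -0.05. Neither count was stable. With quantile normalization the knockout split was 10 against 8 (median 0.03), with array medians subtracted 11 against 7 (0.05), and without knockout control 3 it was 9 against 9 (median 0.0043). The overexpressor median turned to 0.05 with quantile normalization, to 0.01 with array medians subtracted and to 0.06 without overexpressor 1. The class median of each array, relative to the control mean, was 0.07, 0.11 and 0.09 in the 3 knockouts and -0.004, 0.15 and -0.19 in their controls. The knockouts lay close together inside the range of their controls. In the overexpressors it was -0.22, 0.02 and 0.07, against 0.01, -0.03 and 0.05 in the controls. Overexpressor 1, the low array, was also low over all probe sets (-0.18).

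Slc25a10, the dicarboxylate carrier that exchanges malate and succinate for phosphate, read 928, 1305 and 1074 in the knockouts and 399, 738 and 550 in their controls. All 3 knockouts were above all 3 controls. The mean was 1102 ± 190 against 562 ± 170 (SD, n = 3), a log2 fold change of 0.95 (SE 0.31, unadjusted p = 0.00897, adjusted p = 1 by limma). In the overexpressor line the same probe set read 912, 1544 and 1442 against 1247, 778 and 1936, and the groups overlapped throughout (0.03, 95% interval -0.63 to 0.70). The difference between the 2 effects was 0.92 (unadjusted p = 0.0558, adjusted p = 0.893).

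Slc25a1, the citrate carrier, read 1746, 2125 and 1994 in the knockouts and 1019, 2187 and 1207 in their controls. Knockout control 2 lay above all the knockouts, while the other two controls lay below them (0.47, SE 0.31, unadjusted p = 0.156, adjusted p = 1). The overexpressors read 2296, 3701 and 3411 and their controls 2451, 1780 and 4132 (0.22, interval -0.46 to 0.91). The spread within the controls was wider than the distance between the group means. A second Slc25a1 probe set gave 0.52 in the knockout and 0.31 in the overexpressor. In the overexpressor line, control 3 was the highest and control 2 the lowest control for Slc25a1 and Slc25a10. Slc2a4 ran in the same order over these 3 mice, an order looked at after the values were seen. The knockout controls did not share it: Slc2a4 was highest in control 3 there, and Slc25a1 and Slc25a10 in control 2. A link between these genes was not tested.

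Slc25a17, a member of the family that sits in the peroxisome and carries cofactors, read 1091, 729 and 928 in the knockouts and 820, 783 and 279 in their controls. Only knockout control 3 lay clearly below the others (0.64, SE 0.30, unadjusted p = 0.0563, adjusted p = 1). In the overexpressors it read 258, 302 and 280, each below the controls at 444, 352 and 418 (-0.48, unadjusted p = 0.139, adjusted p = 0.913). The difference between the effects was 1.11 (unadjusted p = 0.0226, adjusted p = 0.869) and 0.64 without knockout control 3.

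**Figure D2:**
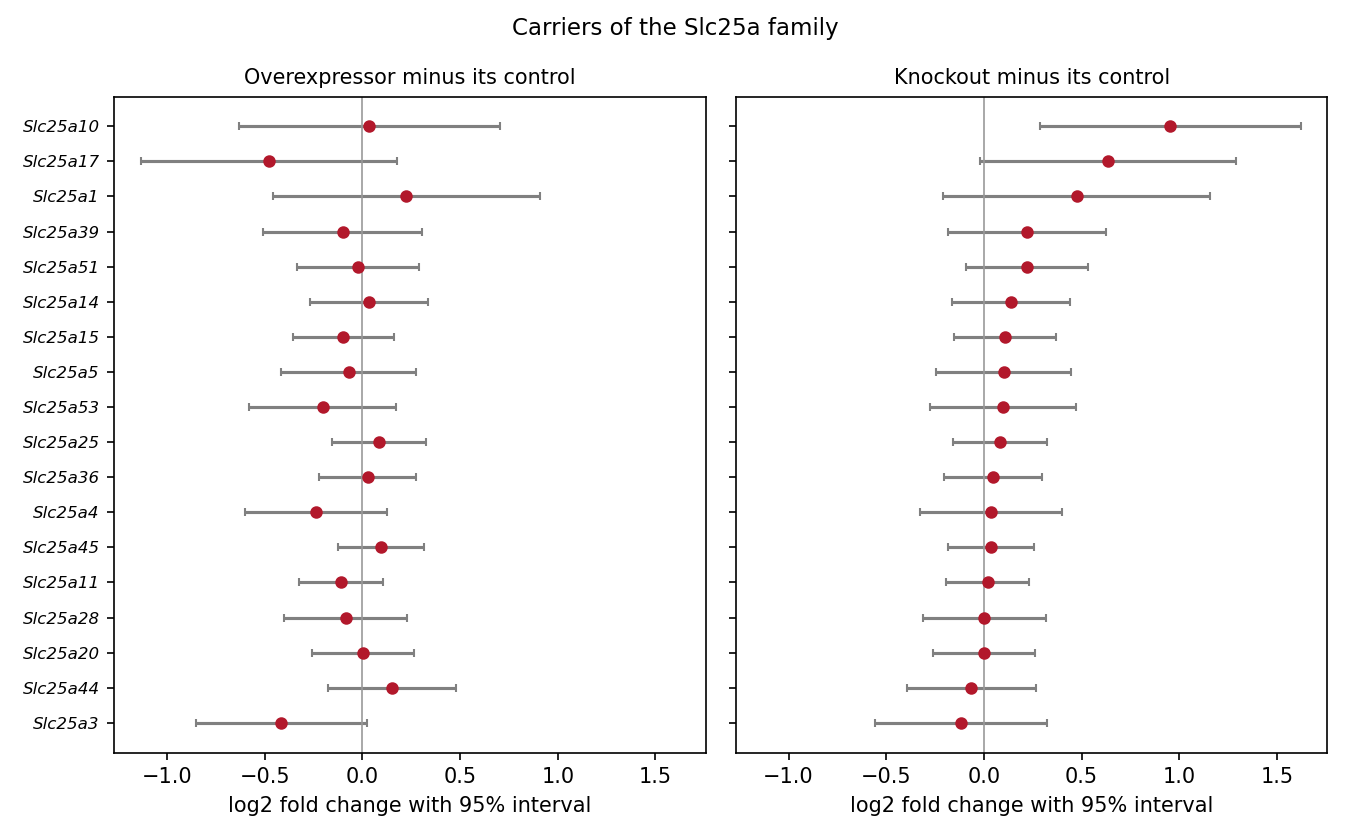
Log2 fold change with its 95% interval (x axis) for each of the 18 Slc25a carriers (y axis), ordered by the knockout difference, in the overexpressor (left) and the knockout (right). Slc25a10 in the knockout (0.95, interval 0.28 to 1.62) has the only interval that leaves out 0.

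The carriers of oxidative phosphorylation were among the brightest probe sets. Their log2 fold changes ran from -0.41 to 0.10, and none had an unadjusted limma p under 0.05 in either line. The ADP/ATP carrier Slc25a5 read 1943 to 2771 in the overexpressors and 2511 to 2580 in their controls (-0.07), and 2591 to 3352 in the knockouts against 2346 to 3289 (0.10). Its overexpressor value turned to 0.05 with quantile normalization. The ADP/ATP carrier Slc25a4 read 1409, 1818 and 1772 in the overexpressors, just below the controls at 2076, 1972 and 1832 (-0.24, interval -0.60 to 0.13). In the knockouts it read 1708 to 2531 against 1618 to 2166 (0.04, below 0 with either rescaling). The phosphate carrier Slc25a3 read 919, 1719 and 1679 in the overexpressors and 1992, 1895 and 1703 in the controls. The low value was again overexpressor 1 (-0.41, unadjusted p = 0.0623, -0.13 at its nearest to 0 over the alternatives). In the knockout it was -0.12. Slc25a20, which brings acylcarnitines to fatty acid oxidation, had a log2 fold change of 0.00 in both lines, with an interval of -0.26 to 0.26 in each.

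The other mitochondrial carriers differed by 0.22 or less in either line. Slc25a51, the NAD carrier, read 333, 352 and 305 in the knockouts and 243, 314 and 280 in the controls (0.22), and its other probe set did not overlap (0.32, unadjusted p = 0.0117). The oxoglutarate carrier Slc25a11 was below every control in the overexpressors by a small amount (-0.11). Slc25a53 was at -0.20 in the overexpressor and 0.10 in the knockout.

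Genes under other names that work beside these carriers were counted as well. Of 5 mitochondrial companions tested (Ucp1, Ucp3, Mtch1, Mtch2 and Mpc1), all 5 were higher in the knockout with a median of 0.23 (4 of 5 with either rescaling), none of them past the adjusted test. In the overexpressor 2 were higher and 3 lower (3 against 2 with quantile normalization). Mpc1, a subunit of the pyruvate carrier, read 298, 315 and 286 in the knockouts and 281, 244 and 214 in the controls (0.26, unadjusted p = 0.0356). On the arrays of the overexpressor line Mpc1 stayed between 49.6 and 63.0, below the brightness limit, and it is counted there with the rest. Of the brown fat markers, which include Ucp1, 4 of 4 tested were higher in the knockout (median 0.71) and 4 of 4 lower in the overexpressor (median -0.58, and 2 of 4 with a median of -0.19 without overexpressor 1). Their summed intensity was 3100 to 4468 in the knockouts and 923 to 4169 in their controls, and 833 to 2728 in the overexpressors against 1402 to 4229. Elovl3 of that list was too dim to test and none was at 0. The 5 adipocyte markers tested were all higher in the knockout (median 0.25, 4 of 5 with either rescaling, summed 16437 to 18027 against 15169 to 15827). The part of these markers in the mitochondrial values was not tested.

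**Figure D3:**
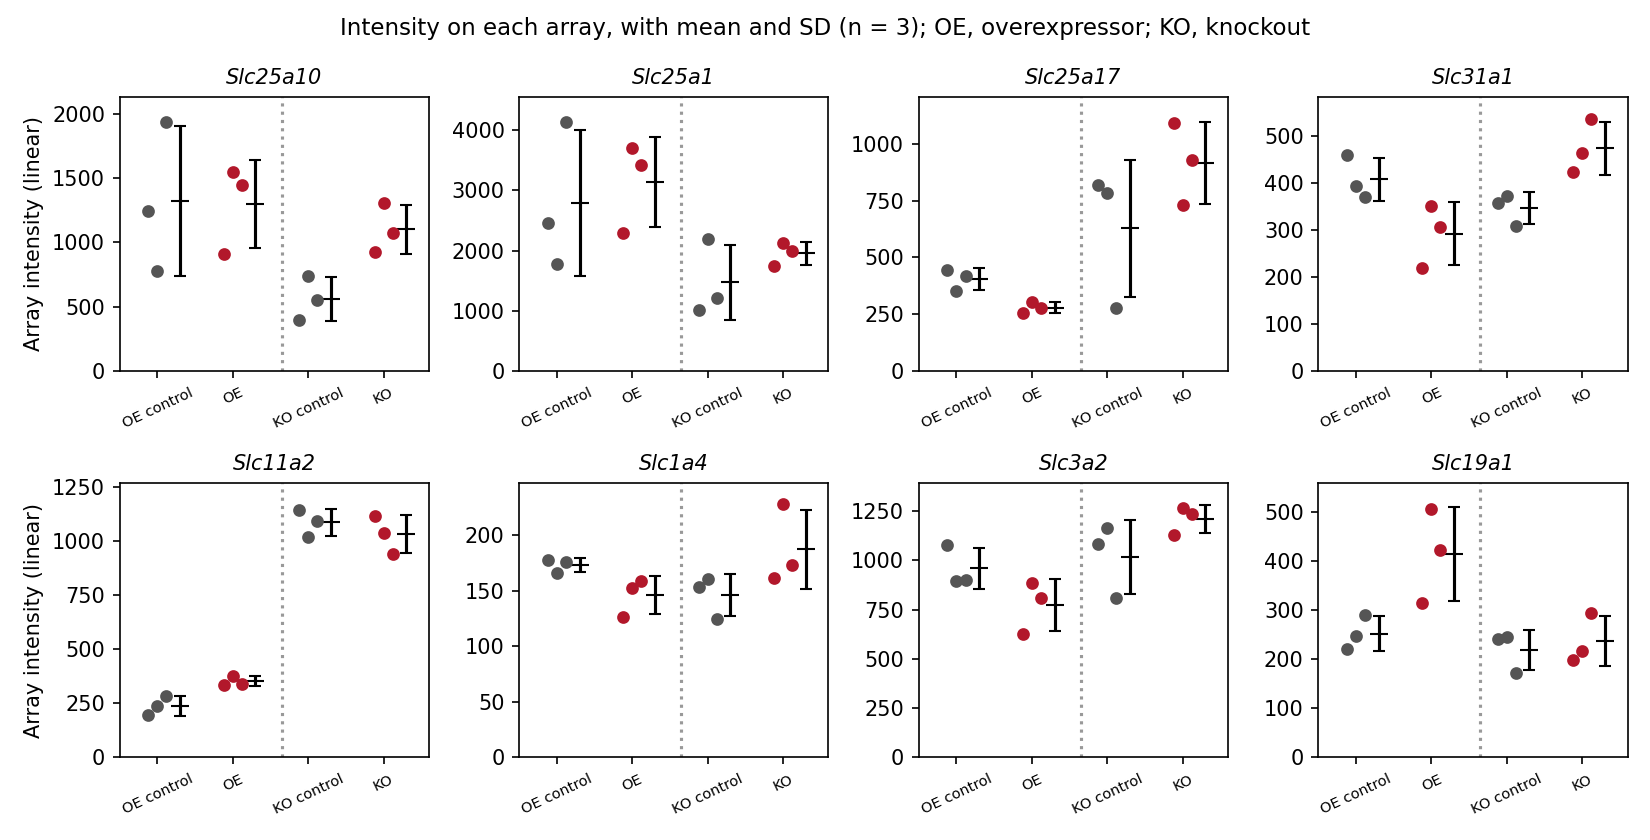
Intensity on each array (y axis, linear, from 0) for 8 carriers, with 1 point per mouse, and the mean and SD of 3 mice beside the points. OE is the overexpressor line and KO the knockout line, separated by a dotted line because levels are not compared between lines. Slc31a1 and Slc1a4 are lower than every control in the overexpressor and higher than every control in the knockout, while Slc25a10 separates in the knockout and overlaps in the overexpressor.

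Among the amino acid carriers, 12 of 17 were lower in the overexpressor (median -0.10, beside -0.07 over all probe sets), and 10 of 17 were higher in the knockout (median 0.03, beside 0.04). With quantile normalization 11 were lower in the overexpressor (-0.03) and 9 lower in the knockout (-0.02). With array medians subtracted the medians were -0.04 and -0.01. Without overexpressor 1 the overexpressor median was -0.03, and without knockout 2 the knockout median was -0.02.

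Slc3a2, the heavy chain shared by several exchangers of the Slc7 family, read 626, 887 and 809 in the overexpressors and 1080, 897 and 901 in the controls. The groups did not overlap, although overexpressor 2 lay just under control 2 (-0.31, SE 0.16, unadjusted p = 0.0793, adjusted p = 0.913). In the knockouts it read 1131, 1266 and 1236 against 1081, 1164 and 807, with an overlap at knockout 1 (0.26, unadjusted p = 0.132, adjusted p = 1). The difference between the effects was 0.56 (unadjusted p = 0.0278, adjusted p = 0.893). Its light chain Slc7a5, the large neutral amino acid exchanger, was at 0.01 in the overexpressor (262 to 287 in all 6 mice) and -0.11 in the knockout (253 to 297).

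Slc1a4, a sodium-coupled exchanger of serine, alanine and cysteine, was one of the dimmest carriers tested. It read 127, 152 and 159 in the overexpressors, each below the controls at 178, 166 and 176 (-0.20, SE 0.13, unadjusted p = 0.14, adjusted p = 0.913). In the knockouts it read 162, 228 and 173, each above the controls at 154, 161 and 125 (0.29, unadjusted p = 0.046, adjusted p = 1). The nearest values, 162 and 161, were almost equal, and the knockout value was 0.16 without knockout 2. The difference between the effects was 0.49 (interval 0.09 to 0.89, unadjusted p = 0.0195, adjusted p = 0.862). Its relative Slc1a5, the glutamine exchanger, was the brightest amino acid carrier. It read 1486 to 2471 in the overexpressors against 1738 to 2422 (-0.09, 0.02 with quantile normalization), and 2038 to 2660 in the knockouts against 1672 to 2151 (0.27, unadjusted p = 0.179).

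Slc38a2, the sodium-coupled importer of small neutral amino acids that is known to be induced when amino acids are scarce, read 220, 300 and 270 in the overexpressors and 419, 387 and 289 in the controls. Control 3 lay inside the range of the overexpressors (-0.42, SE 0.16, unadjusted p = 0.0257, adjusted p = 0.913). The knockouts read 228, 251 and 340 against 285, 321 and 260 (-0.08). Slc38a10 was at 0.17 and 0.19, and its second probe set at 0.08 and -0.26, so its probe sets differed in sign in the knockout. The exchanger light chain Slc7a8 was at -0.16 and 0.20, Slc7a7 at -0.16 and -0.13, and Slc6a18, a neutral amino acid importer, at -0.18 and -0.25, each pair being the overexpressor and then the knockout. None of these had an unadjusted p under 0.05. The knockout value of Slc7a8 came from intensities of 45 to 68, below the brightness limit in that line.

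The genes of the amino acid stress response that were tested (6 of 10 listed) were all lower in the overexpressor (median -0.12), but 3 of 6 with quantile normalization and 5 of 6 with array medians subtracted. In the knockout 4 were higher and 2 lower (median 0.04), and 3 against 3 with either rescaling and without knockout control 3 (median -0.05). None passed the adjusted test. Psat1, an enzyme of serine synthesis, read 622, 1066 and 1081 in the overexpressors against 1117, 1182 and 1318 (-0.41), and 1308, 1756 and 1894 in the knockouts against 987, 1397 and 971 (0.55, unadjusted p = 0.0258). Atf4, the transcription factor of this response, was at -0.06 and 0.01, and asparagine synthetase (Asns) at -0.16 and 0.12. Phgdh, at -0.09 and -0.22, and Cebpb, at -0.32 and -0.10, were lower in both lines, and Trib3 was at -0.03 and 0.07.

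The inorganic ion carriers held the smallest p-values of all carriers in the overexpressor (Slc11a2) and for the difference between the lines (Slc31a1). In the overexpressor 9 of 27 were higher and 18 lower (median -0.05), and in the knockout 15 were higher and 12 lower (median 0.02). With quantile normalization the overexpressor split was 13 against 14 (median -9.1e-05) and with array medians subtracted 14 against 13 (0.01). In the knockout these gave 9 against 18 (-0.02) and 12 against 15 (-0.02), and 9 against 18 (-0.03) without knockout control 3. Without the scaffolds Slc9a3r1 and Slc9a3r2 the main medians were -0.05 and 0.03 over 25 genes. Among the 14 metal carriers 10 were lower in the overexpressor (median -0.08), and the knockout held 7 higher and 7 lower.

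Slc31a1, the high-affinity copper importer, read 220, 352 and 306 in the overexpressors and 460, 394 and 371 in the controls. All the overexpressors lay below all the controls, the nearest being 352 and 371. The means were 293 ± 67.1 and 408 ± 46 (SD, n = 3), a log2 fold change of -0.45 (SE 0.15, unadjusted p = 0.0122, adjusted p = 0.861), and -0.28 without overexpressor 1. In the knockouts it read 424, 464 and 536, all above the controls at 359, 374 and 309. There the means were 475 ± 56.7 and 347 ± 34.2 (0.41, SE 0.15, unadjusted p = 0.0192, adjusted p = 1). The difference between the effects was 0.86 (SE 0.22, interval 0.39 to 1.33, unadjusted p = 0.00174), the smallest p of any carrier in that contrast, and it missed the threshold after adjustment (0.361). A dimmer Slc31a1 probe set had the same directions with smaller values, -0.18 and 0.20, and its groups overlapped in both lines.

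**Figure D4:**
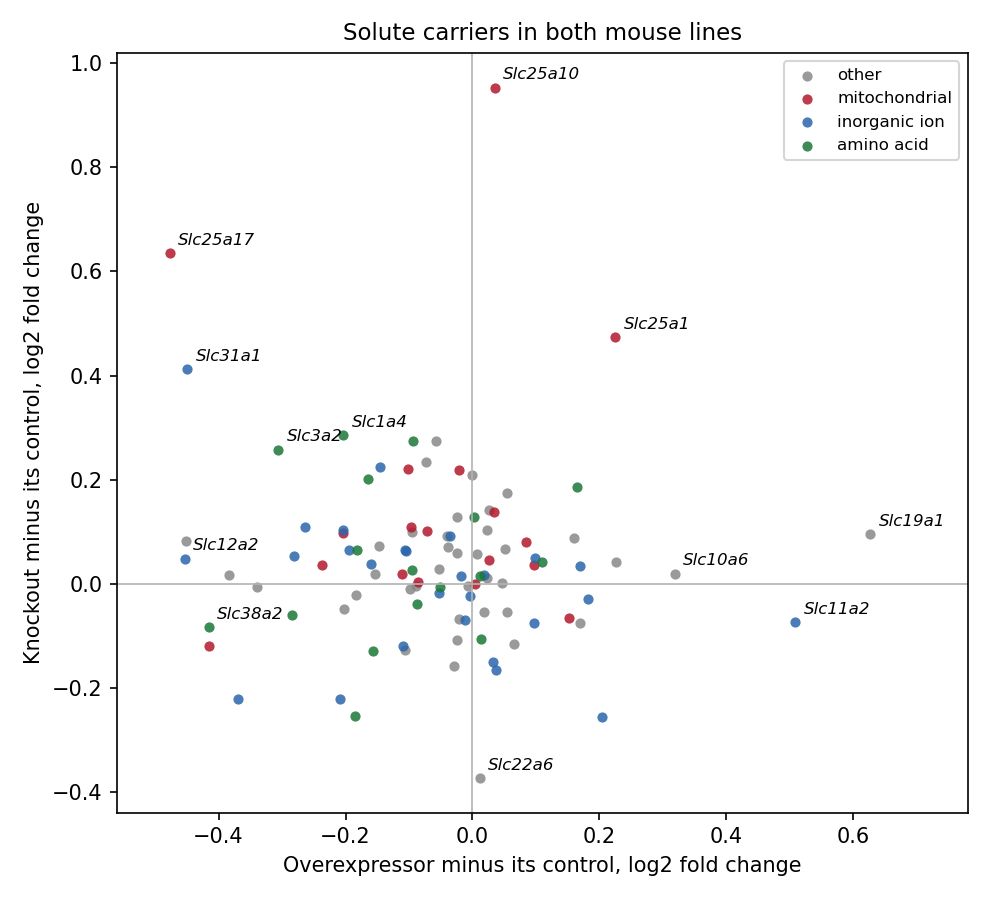
Log2 fold change of each carrier in the overexpressor (x axis) and in the knockout (y axis), coloured by class, with 1 point per gene. Slc31a1, Slc25a17, Slc3a2 and Slc1a4 lie in the upper left, Slc25a10 lies highest at 0.95, and Slc19a1 and Slc11a2 lie farthest right at 0.63 and 0.51. None of the points passed the adjusted test in either line.

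Slc11a2, the importer of ferrous iron and other divalent metals, read 335, 378 and 340 in the overexpressors and 194, 236 and 285 in the controls. All the overexpressors lay above all the controls (0.51, SE 0.13, unadjusted p = 0.00177, adjusted p = 0.456). The knockouts read 1117, 1037 and 942 against 1146, 1019 and 1095, which overlapped (-0.07). The difference between the effects was -0.58 (unadjusted p = 0.0072, adjusted p = 0.65). A second Slc11a2 probe set disagreed: it was at -0.07 in the overexpressor and at 0.31 in the knockout (unadjusted p = 0.0274). With the mean of both probe sets the overexpressor value was 0.22 and the difference between the effects -0.10. Its relative Slc11a1, a phagosomal metal carrier of macrophages, was at -0.04 (0.02 to 0.03 with either rescaling) and 0.09.

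Slc12a2, the sodium, potassium and chloride cotransporter, read 131, 177 and 224 in the overexpressors and 281, 257 and 221 in the controls. Overexpressor 3 lay just above control 3 (-0.45, SE 0.20, unadjusted p = 0.0388, adjusted p = 0.913), and the value was -0.29 without overexpressor 1. In the knockout it was at 0.05, and below 0 with quantile normalization. The anion exchanger Slc4a2 read 266, 284 and 299 in the overexpressors, each below the controls at 357, 328 and 302 (-0.19, unadjusted p = 0.0741). Slc30a3, a carrier of zinc into vesicles, and the zinc importer Slc39a4 also lay below every control in the overexpressor, each with a log2 fold change of -0.11. On a dimmer Slc39a4 probe set the overexpressor groups overlapped, at 182, 372 and 317 against 410, 401 and 280 (-0.32). The other ion carriers with the smallest p-values in the knockout were Slc30a9 (0.22), the scaffold Slc9a3r1 (-0.22) and the magnesium carrier Slc41a1 (-0.17). Their unadjusted p-values were 0.113, 0.172 and 0.201. The phosphate importer Slc20a1 was at 0.02 in both lines (below 0 in the knockout with either rescaling), and was below the brightness limit in the overexpressor line.

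Of the pumps and partner proteins that set ion gradients or carry transporters to the membrane, 4 of 10 listed were tested (Atp1b2, Atp1b3, Bsg and Emb). In the overexpressor 1 was higher and 3 lower (median -0.16, -0.08 with quantile normalization, and -0.02 with all 4 lower without overexpressor 1). In the knockout 2 were higher and 2 lower (median 0.09, and -0.02 without knockout control 3), and none passed the test. Several lists of markers for other cells of the fat pad were lower in the overexpressor. All 5 fibroblast and matrix genes were lower (median -0.58, summed intensity 13380 to 16788 against 15945 to 22781 in the controls), as were all 4 smooth muscle genes (-0.45, 6304 to 6732 against 6218 to 10929), all 5 endothelial genes (-0.29, 1741 to 2601 against 2267 to 2797, with 3 of 5 lower under quantile normalization and a median of -0.04 without overexpressor 1) and 5 of 6 macrophage genes (-0.30, 3095 to 3432 against 2849 to 5802). None of these lists had a gene at 0. In the knockout all 4 smooth muscle genes were lower too (median -0.35), and 4 of 5 fibroblast and matrix genes (-0.13). The endothelial (-0.01) and macrophage (0.06) lists were mixed there. All 4 mesothelial genes tested were lower in the overexpressor (-0.30) and 3 of 4 in the knockout (-0.13). The 3 B cell genes tested were lower in the overexpressor (median -0.19), where the list summed to 1559 to 2233 against 2236 to 2443. In the knockout 1 was higher and 2 lower (median -0.11), and 1 passed the adjusted test, beside 0.121% of all probe sets. The summed intensity of the list was nevertheless 2893 to 3515 in the knockouts, above 1838 to 2219 in their controls. The T cell and erythroid genes tested were all higher in the overexpressor. Of 5 skeletal muscle genes, 4 were lower in the overexpressor (median -0.09) and all 5 higher without overexpressor 1. In the knockout 4 were higher (0.24, summed 1435 to 5752 against 1456 to 3086), and 2 without knockout control 3. The 3 mammary epithelium genes tested were lower in the overexpressor, and 3 of 4 genes of ovary and oviduct or uterus higher. Both lists were mixed in the knockout. The part of these cells in the carrier values was not tested.

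Among the remaining 39 carriers, 16 were higher and 23 lower in the overexpressor (median -0.02), and 24 higher and 15 lower in the knockout (median 0.02). With quantile normalization the overexpressor split turned to 27 against 12 (0.04) and the knockout split to 16 against 23 (-0.03). With array medians subtracted they were 27 against 12 (0.03) and 18 against 21 (-0.02).

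Slc19a1, the reduced folate carrier, had the largest overexpressor difference of any carrier. It read 314, 507 and 423 in the overexpressors and 220, 247 and 290 in the controls, with no overlap. The means were 415 ± 96.5 and 252 ± 35 (SD, n = 3), a log2 fold change of 0.63 (SE 0.18, unadjusted p = 0.00485, adjusted p = 0.583). A second Slc19a1 probe set read 239, 246 and 235 against 148, 151 and 209, again with no overlap (0.44, unadjusted p = 0.00238, adjusted p = 0.51). In the knockout line the first probe set was at 0.10 and the second at -0.06, and the groups overlapped on both. The vitamin and choline carriers, 6 genes tested with Slc19a1 among them, had a median of -0.05 in the overexpressor.

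Slc10a6, a sodium-coupled carrier of sulphated steroids, was dim and read 163, 211 and 219 in the overexpressors against 157, 157 and 136 (0.32, unadjusted p = 0.0154, adjusted p = 0.885). All the overexpressors lay above the controls, the nearest values being 163 and 157. In the knockout it was at 0.02, and below 0 with either rescaling. Slc22a6, an organic anion exchanger, read 881, 724 and 1132 in the knockouts and 1351, 941 and 1269 in the controls, with an overlap (-0.37, unadjusted p = 0.0373, adjusted p = 1, and -0.22 without knockout 2). In the overexpressor line it stayed between 64.9 and 76.0, below the brightness limit. Slc22a12, the urate exchanger, and Slc35a1, the carrier of CMP-sialic acid into the Golgi, were at -0.45 and -0.38 in the overexpressor (unadjusted p = 0.0549 and 0.0801), with overlapping groups, and at 0.08 and 0.02 in the knockout, where Slc35a1 was below 0 with either rescaling.

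The heme carrier Slc48a1 was the one carrier that lay below every control in the knockout, at 262, 273 and 274 against 313, 281 and 292 (-0.12, unadjusted p = 0.357). The multivitamin importer Slc5a6, which brings in biotin and pantothenate, read 299, 325 and 288 in the knockouts and 189, 336 and 229 in the controls (0.27, unadjusted p = 0.133). The creatine importer Slc6a8 and the GABA importer Slc6a13 were at 0.23 and 0.21 in the knockout, neither with an unadjusted p under 0.05. The norepinephrine importer Slc6a2 and the inositol importer Slc5a11, both bright, were at 0.02 and 0.23 in the overexpressor and at -0.05 and 0.04 in the knockout, Slc5a11 turning to -0.03 in the knockout with quantile normalization. A second Slc6a2 probe set was at 0.04 in the overexpressor and at -0.22 in the knockout, with overlapping groups in both lines. Slc22a18 was at 0.05 in the overexpressor and 0.00 in the knockout. The organic anion carrier Slco3a1, of a neighbouring family, read 118, 116 and 136 in the overexpressors against 169, 156 and 151 (-0.29), and 203, 172 and 288 in the knockouts against 186, 133 and 147 (0.41, unadjusted p = 0.0211), and did not pass the adjusted test. Its overexpressor values were all below the brightness limit.

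Of the carriers known from fat that had been listed by name, the cystine exchanger Slc7a11 and the lactate and pyruvate carrier Slc16a1 were too dim to test. Slc7a10, Slc36a2, Slc39a14 and Slc40a1 were not analysed here. Of the 101 carriers, 92 were above the brightness limit in both lines by each line's own mean. In the knockout line alone these were Slc22a6, Slc23a3, Slc35d1, Slc7a2 and Slc20a1 (5), and in the overexpressor line alone Slc51a, Slc41a1, Slc38a4 and Slc7a8 (4). The values of these 9 genes in the other line come from intensities below the limit and are counted above with the rest.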

How the data were processed

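The authors deposited linear intensities for 12422 probe sets on each of 12 arrays. How they were summarised, scaled and background-corrected was not given in the sources used here. Groups came from the sample titles, since the genotype label does not tell controls from mutants. Gene names came from the platform annotation and were updated by gene ID: 10833 probe sets had 1 symbol, 396 several and 1193 none, and 10817 matched by ID.

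Intensities were transformed as log2(intensity + 36.92), the 10th percentile of the table. The 4968 probe sets (40%) with the lowest mean over 12 arrays were left out. A single limma 3.58.1 model (R 4.3.3) took a mean per group over the 12 arrays, using lmFit and then eBayes with its trend option (degrees of freedom: 8 residual, 4.27 prior), with Benjamini-Hochberg adjustment over 7454 probe sets and a threshold of 0.05. The script was tested on simulated data. Figures used Python 3.11.15 and matplotlib 3.10.9. No 2 arrays were identical (smallest root mean square log2 difference 0.184), and arrays give no read depth, so their number limits the precision.

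Named in each class were the 4 carriers with the smallest p in each comparison, the 3 brightest, the 5 with the smallest p for the difference, and a list of carriers known from fat. Others, such as Slc48a1 and Slc39a4, were named after their values were seen. The companion genes had been planned to be described by counts only, so values given for single ones, such as Mpc1, Psat1 and Slco3a1, were outside that plan. The members and lists were chosen with earlier results of these data known. The alternatives were 2 other constants, 2 other brightness limits, quantile normalization within each line, array medians subtracted, a replicate block, the mean of a gene's probe sets, no intensity trend, each line's own 6 arrays, and each array left out in turn. Scanner files were not used here, so no other background correction and no slide or scan block was tried.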

Additional observations from a re-analysis of the deposited data

Results flagged for a closer look

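Slc31a1 and Slc1a4 were the 2 of 101 carriers whose groups separated without overlap in opposite directions in the 2 lines, lower than every control in the overexpressor and higher than every control in the knockout. The share of all probe sets that did so was not counted, so nothing about the carriers as a group is read from this count. Groups did not overlap, in either direction, for 8.77% of all probe sets in the overexpressor line and 7.51% in the knockout line. For Slc31a1, the copper importer, the knockout effect minus the overexpressor effect was 0.8612 on the log2 scale (limma, adjusted p = 0.361). For Slc1a4, the exchanger of serine, alanine and cysteine, it was 0.4896 (adjusted p = 0.862). The difference was tested in both cases and did not pass the threshold. Groups of 3 are too small for a test of single outlying arrays.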

How the results depend on the processing

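The count of carriers past the adjusted threshold was 0 in each of the 3 contrasts under all 22 alternatives (the own-line fit gives no value for the difference between the lines). At an unadjusted limma p under 0.05 the counts with the settings of the report were 6, 4 and 5. A fit with the replicate number as a replicate block also called 0. Same-numbered mutants and controls had correlations of deviations of -0.06, -0.09 and 0.02 in the overexpressor line and -0.23, -0.04 and -0.35 in the knockout line. Differently numbered ones ran from -0.20 to 0.20 and from -0.18 to 0.41. With 3 arrays a group these correlations cannot show whether any mice were paired. The class medians were the least stable values. The overexpressor median of the amino acid carriers, -0.0953, was -0.1827 when the dimmest 60% of probe sets were dropped, -0.0325 with quantile normalization, -0.0373 with array medians subtracted, and from -0.1402 (without overexpressor control 3) to -0.0348 (without overexpressor 1) with each array left out. Their knockout median, 0.0275, was -0.0245 with quantile normalization and from -0.016 (without knockout 2) to 0.0572 (without knockout 3). For mitochondrial carriers the leave-one-out medians ran from -0.1134 to 0.0604 in the overexpressor and from 0.0043 to 0.1312 in the knockout, and for ion carriers from -0.1027 to -0.0142 and from -0.0296 to 0.0622. Of 39 named carriers, 24 kept their sign under every alternative in the overexpressor and 22 in the knockout. Slc31a1, Slc19a1, Slc25a10 and Slc11a2 were among them for the comparisons described, with ranges of -0.58 to -0.28 (Slc31a1, overexpressor), 0.30 to 0.48 (Slc31a1, knockout), 0.48 to 0.80 (Slc19a1), 0.74 to 1.16 (Slc25a10, knockout) and 0.22 to 0.63 (Slc11a2). The causes were not tested.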
